A study of Mus musculus with 16 samples.

Results

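The cell cycle and DNA replication genes described here were a list of 50 genes, 16 of DNA replication in S phase and 34 of mitosis, taken by gene symbol and not by their measured values. A named probe set was found for 47 of the 50 genes, 15 of S phase and 32 of mitosis, out of 19505 gene symbols on the array. Mcm7, Ccnb1 and Foxm1 were not analysed here. None of the 47 had more than 1 probe set.

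RNA was measured on Clariom S mouse arrays in cells from S100a5-tauGFP mice, whose dissociated olfactory mucosa was sorted by the GFP that marks sensory neurons expressing the activity-dependent gene S100a5. All 24 mice, of both sexes and 7 to 12 weeks old, carried the reporter and were housed singly for 40 h in chambers flushed with clean air (3.1 L/min). Pulses of 10 s every 20 min began at 26 h, of the ketone odorant 2-octanone in 4 pools of 3 mice and of filtered air, the vehicle, in the other 4. The GFP+ and the GFP- fraction of a pool went onto separate arrays, giving 4 groups: GFP+ and GFP- cells after 2-octanone and GFP+ and GFP- cells after vehicle, with 4 arrays each. Per-array values are given in the order of replicates 1 to 4. A pool hides the differences among its 3 mice, and the sources used here do not say which promoter fragment or locus drives the reporter. Signals are on a log2 scale, on which a difference of 1 is a factor of 2. Array medians ran from 7.64 to 7.73 in GFP+ arrays and from 7.92 to 8.01 in GFP- arrays, so they differed by fraction. Both fractions carried the markers of mature olfactory sensory neurons (OSNs), whose 9 genes averaged 17.23 to 17.47 in GFP+ arrays and 16.62 to 17.29 in GFP- arrays. The replicate 4 pools stood apart in S100a5, which read 13.92 in GFP+ cells after 2-octanone and 13.22 after vehicle, against 16.47 to 16.98 in the GFP+ cells of the other 6 pools. Their GFP- cells were low too, at 13.55 after 2-octanone and 13.11 after vehicle, against 15.45 to 15.81 in the others. GFP+ exceeded GFP- in S100a5 by 0.38 and 0.11 in the replicate 4 pools, against 0.87 to 1.22 in the other 6.

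A dividing cell copies its DNA in S phase and parts the copies in mitosis. Before S phase, Cdc6 and Cdt1 load the ring of Mcm proteins, the replicative helicase, onto origins, and E2F transcription factors switch on the genes for replication and nucleotide supply. Genes of mitosis peak later under the MuvB complex, which binds the CHR element of their promoters together with NF-Y at CCAAT boxes. In the olfactory epithelium globose basal cells divide and give rise to OSNs, which do not divide once mature. Precursors of granulocytes, red cells and lymphocytes also divide, and blood cells can be carried along when a tissue is dissociated.

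The promoters of both classes are shown first, because 2 of the 3 motifs searched differed in how often the classes hold them. Promoter windows of 300 bases (250 before to 50 after the start, RefSeq, GRCm38.p6) were given for 41 of the 47 measured genes, 13 of S phase and 28 of mitosis, and for 15691 genes of the array. The motifs searched on both strands were CHR as TTTGAA, the CCAAT box, and E2F-like sites spelled TTCCCGC or else TTCGCGC, or else TTGCCGC, or else TTGGCGC, and overlapping matches were all counted. For each class the 2 genes with the most negative GFP+ minus GFP- difference whose window held CHR (mitotic) or an E2F-like site (S phase) are printed over the 250 bases before the start, 5′ to 3′ on the gene's strand, with every match in capitals. Mki67 lies at chr7:135716380-135716629 (minus strand), Ube2c at chr2:164769679-164769928 (plus strand), E2f8 at chr7:48881597-48881846 (minus strand) and Rrm2 at chr12:24708004-24708253 (plus strand).
Mki67: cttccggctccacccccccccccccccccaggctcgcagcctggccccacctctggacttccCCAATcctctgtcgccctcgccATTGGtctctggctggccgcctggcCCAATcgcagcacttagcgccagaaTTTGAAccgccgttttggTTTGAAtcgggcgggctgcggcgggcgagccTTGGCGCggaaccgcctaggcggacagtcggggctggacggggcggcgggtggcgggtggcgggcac
Ube2c: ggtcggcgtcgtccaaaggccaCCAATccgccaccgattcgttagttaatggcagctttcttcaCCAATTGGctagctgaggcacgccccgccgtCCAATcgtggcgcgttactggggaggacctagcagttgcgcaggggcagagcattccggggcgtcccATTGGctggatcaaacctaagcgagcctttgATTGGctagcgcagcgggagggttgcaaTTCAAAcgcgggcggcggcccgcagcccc
E2f8: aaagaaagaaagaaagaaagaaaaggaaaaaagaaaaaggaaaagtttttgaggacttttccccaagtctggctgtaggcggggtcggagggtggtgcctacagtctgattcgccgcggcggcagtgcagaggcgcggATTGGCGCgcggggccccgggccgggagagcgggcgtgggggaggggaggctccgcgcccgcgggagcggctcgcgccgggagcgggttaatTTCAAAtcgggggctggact
Rrm2: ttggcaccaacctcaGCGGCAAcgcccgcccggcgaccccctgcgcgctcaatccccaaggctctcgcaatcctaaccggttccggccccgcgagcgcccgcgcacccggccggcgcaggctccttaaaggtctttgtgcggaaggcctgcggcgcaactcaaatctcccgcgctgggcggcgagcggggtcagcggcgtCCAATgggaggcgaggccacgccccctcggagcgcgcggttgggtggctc
The promoter of Mki67, which codes for a protein of the mitotic chromosome surface, held TTTGAA at −116 and −98, 3 CCAAT boxes and 1 TTGGCGC at −67. That of Ube2c, the ubiquitin-conjugating partner of the anaphase-promoting complex (APC/C), held TTTGAA on the reverse strand at −29 and 6 CCAAT boxes, of which those at −186 and −183 overlap. That of E2f8, a repressor of the E2F family, held TTGGCGC at −111, overlapping a reverse CCAAT, and a reverse TTTGAA at −20. That of Rrm2, the regulated subunit of ribonucleotide reductase, held a reverse TTGCCGC at −235 and CCAAT at −50.

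CHR was found in 21 of 28 mitotic genes (75.0%) and 2 of 13 S phase genes (15.4%), against 17.8% of the array's genes. An E2F-like site was found in 9 of 13 S phase genes (69.2%) and 4 of 28 mitotic genes (14.3%), against 14.2% of the array's genes. CCAAT did not part the classes, with 69.2% of S phase and 75.0% of mitotic genes, against 42.2% of the array's genes. CHR and CCAAT together were held by 19 of 28 mitotic genes (67.9%) and 2 of 13 S phase genes, Mcm2 and E2f8, against 7.26% of the array's genes. Within the mitotic genes, the 21 with CHR had a median GFP+ minus GFP- difference of −2.07 and the 7 without it −2.25. These counts describe letters in a window and show no binding.

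**Figure D1:**
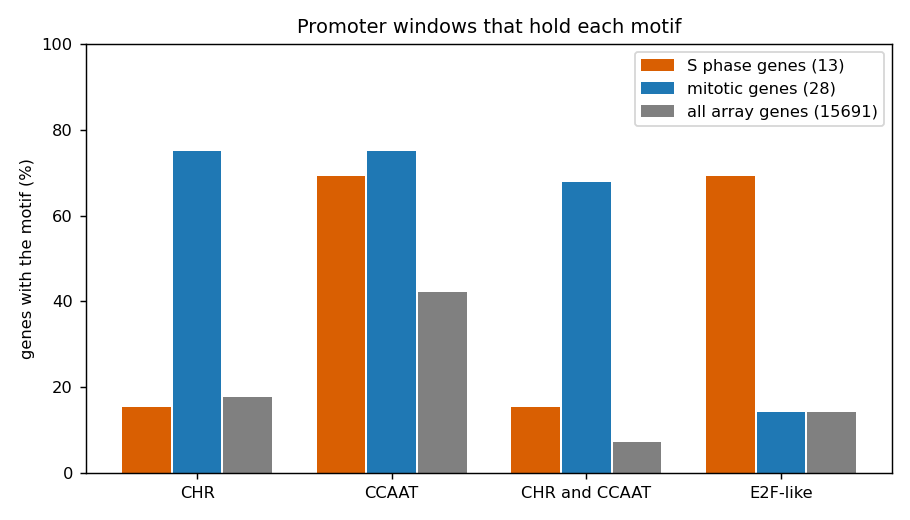
Share of genes (%) whose 300-base promoter window holds CHR, CCAAT, both, or an E2F-like motif, for S phase genes, mitotic genes and all genes of the array with a window. CHR stands in 75.0% of mitotic and 15.4% of S phase genes, and the E2F-like motif in 14.3% of mitotic and 69.2% of S phase genes.

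Setting GFP+ against GFP- cells asks what distinguishes the reporter-positive cells. GFP+ cells held less RNA of 46 of the 47 genes (limma, Benjamini-Hochberg adjusted p under 0.05 over all probe sets), where 14.0% of all 19572 probe sets were called lower and 16.7% higher. The exception was Gins2. The median difference of the 47 was −1.96, against 0.13 over all genes, and single genes ran from −5.21 for Mki67 to −0.19 for Gins2. With GFP+ arrays at or below background set at their background level, 33 of the 47 were lower by over 2-fold and 14 by over 4-fold. That level was taken as each array's median of 23 control probe sets (5.88 to 6.83), a rough guide, since the controls themselves span 2.66 to 9.10 with base composition. In 44 genes GFP+ read below GFP- in each of the 8 pools, which 12.2% of all probe sets did, and in 41 every GFP+ array read below every GFP- array, which 8.25% did. The 3 genes that did not keep the order in every pool were Mcm4, E2f1 and Gins2. In bulk samples fewer cells of a type and less RNA per cell cannot be told apart.

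The order held within each exposure. After 2-octanone 42 of the 47 genes were called lower, beside 9.80% of all probe sets, and after vehicle 43, beside 11.0%. None of the 47 was called higher in either exposure, beside 5.29% of all probe sets after 2-octanone and 7.54% after vehicle. With the pool as a replicate block, which pairs both fractions of 1 set of mice, the calls were 46 over both exposures (background 14.7%), 42 after 2-octanone (10.9%) and 43 after vehicle (12.0%). Without both replicate 4 pools they were 43 (background 13.0%), 41 (9.89%) and 42 (9.76%) in the same order. The 42 genes called after 2-octanone were all called after vehicle. Pcna was called after vehicle (−0.75, adjusted p = 0.0102) and not after 2-octanone (−0.58, adjusted p = 0.0510, limma). Gins2, Mcm4, E2f1 and Prc1 were called in neither exposure alone. The median difference came to −1.82 with 2-octanone and −2.14 with vehicle.

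**Figure D2:**
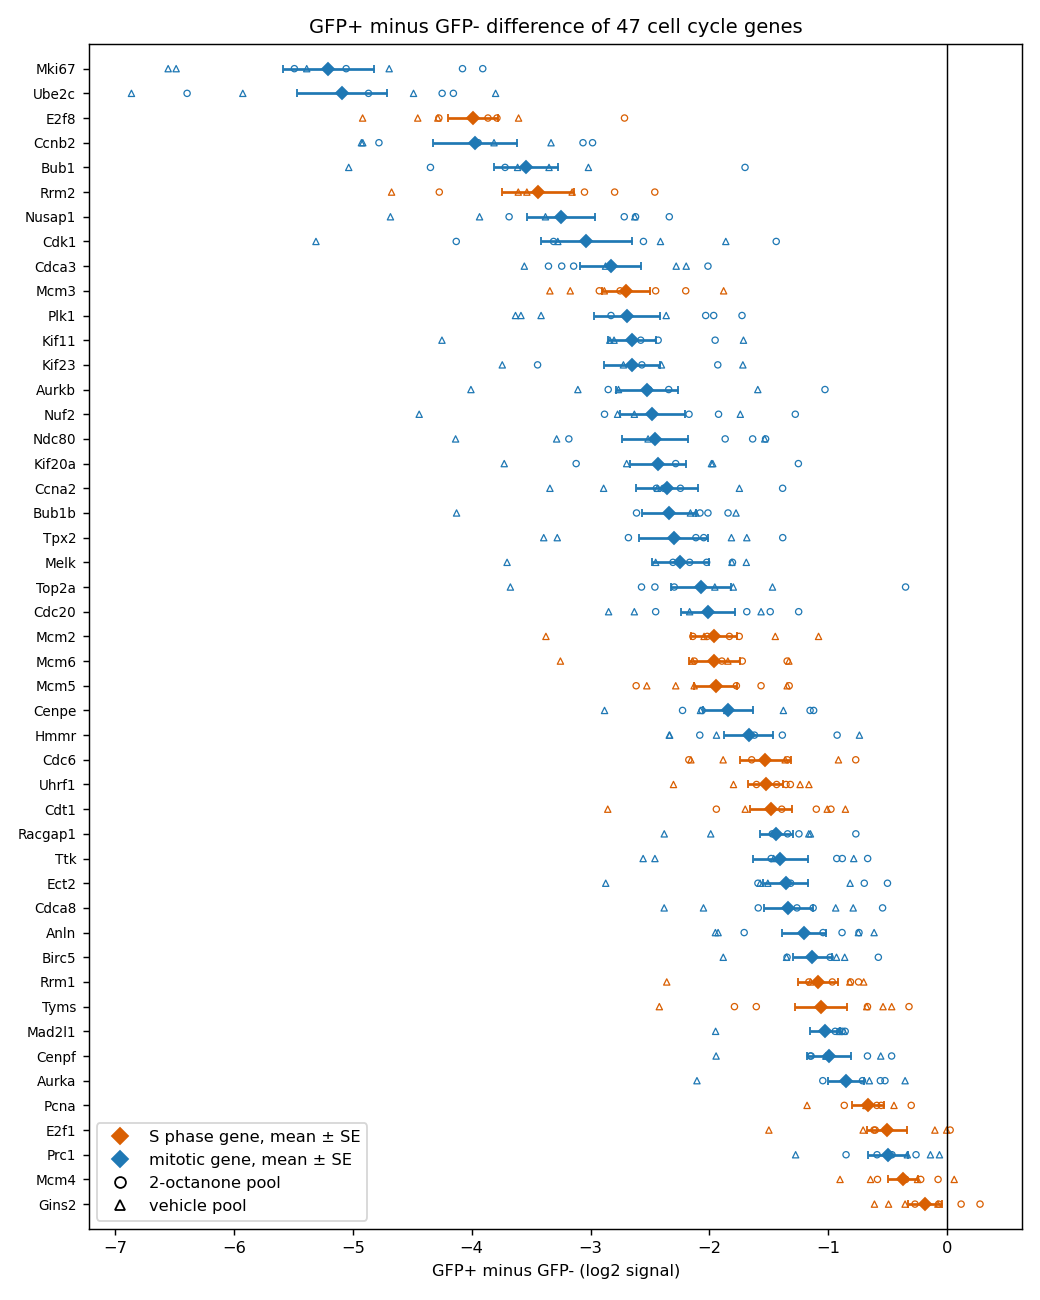
GFP+ minus GFP- difference (log2 signal) of the 47 genes, ordered by size, with the limma estimate ± SE over both exposures and each pool's own difference as an open circle (2-octanone) or triangle (vehicle). Mki67 (−5.21) and Ube2c (−5.09) lie farthest left, and Prc1, Mcm4 and Gins2 lie nearest 0.

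The gap was compared between S phase and mitotic genes. The median difference was −2.32 in the 32 mitotic genes and −1.53 in the 15 S phase genes. With GFP+ arrays at or below background set at that level, an alternative added after seeing the data, the medians were −1.48 and −1.09. On that scale 12 mitotic genes were lower by over 4-fold, and of the S phase genes 2 were, E2f8 and Rrm2. The mitotic median was the more negative in 8 of 8 pools, with or without that setting. With it the classes lay close in the replicate 3 pools. There the mitotic and S phase medians were −0.92 and −0.86 after 2-octanone and −0.84 and −0.70 after vehicle. Without that setting the mitotic median after 2-octanone was −2.20, −2.44, −1.27 and −1.99 in replicates 1 to 4, where the S phase median was −1.44, −1.94, −0.98 and −1.61. After vehicle it was −2.35, −2.37, −1.69 and −3.49, where the S phase median was −1.08, −1.24, −1.45 and −2.42. The gap was narrowest in the replicate 3 pools and widest in vehicle replicate 4 among mitotic genes. No test was made of this difference between classes, since genes of one class are not independent replicates.

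Licensing genes fell together, 7 of 7, with a median of −1.95. Mcm3, a subunit of the helicase, read 5.37, 4.60, 4.72 and 4.98 (2-octanone) and 4.21, 5.25, 4.15 and 5.07 (vehicle) in GFP+ cells, against 7.57, 7.53, 7.17 and 7.73 (2-octanone) and 7.55, 7.13, 7.03 and 8.25 (vehicle) in GFP- cells. The fractions did not overlap, and the difference was −2.70 (SE 0.20, n = 4 pools per exposure, adjusted p = 2.60e-08, limma). All 8 GFP+ arrays read at or below their background level, so Mcm3 was at least 2.04-fold lower in GFP+ cells. Mcm6 read above background throughout, at 7.57, 7.51, 7.77 and 7.90 (2-octanone) and 7.58, 7.25, 7.03 and 7.45 (vehicle) in GFP+ cells, against 9.46, 9.64, 9.12 and 9.62 (2-octanone) and 8.91, 9.39, 8.87 and 10.71 (vehicle) in GFP- cells. It was 3.89-fold lower (−1.96, SE 0.21, adjusted p = 1.74e-06). Mcm2 (−1.96) and Mcm5 (−1.95) lay beside it, and the loaders Cdc6 (−1.53) and Cdt1 (−1.48) followed. Mcm4, a subunit of the same ring, differed by −0.37 (SE 0.13, adjusted p = 0.0356). Its GFP+ arrays read 9.05 to 9.54 and its GFP- arrays 9.24 to 10.27, so the fractions overlapped, and the call was lost in 10 of 18 alternative settings.

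Of the 2 genes of the replication fork 1 fell, by less than 2-fold. Pcna, the sliding clamp of the polymerases and a factor in DNA repair, read 14.21, 14.14, 13.97 and 14.48 (2-octanone) and 13.98, 13.79, 13.98 and 14.11 (vehicle) in GFP+ cells, against 14.52, 15.01, 14.53 and 15.07 (2-octanone) and 14.66, 14.48, 14.43 and 15.29 (vehicle) in GFP- cells. It was lower in every pool, by 1.58-fold over all (−0.66, SE 0.13, adjusted p = 0.00123, limma), though 2-octanone replicate 4 of the GFP+ cells overlapped the lower GFP- arrays. Gins2, a subunit of the helicase activator GINS, read 4.87 to 5.57 in GFP+ cells and 4.97 to 6.07 in GFP- cells, at or below background on all 16 arrays. Its difference of −0.19 (SE 0.14) was not called (adjusted p = 0.337).

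All 3 genes of nucleotide supply fell. Rrm2 read 7.32, 6.41, 7.05 and 7.93 (2-octanone) and 6.70, 6.85, 6.18 and 7.11 (vehicle) in GFP+ cells, against 10.38, 10.68, 9.51 and 10.73 (2-octanone) and 10.24, 10.46, 9.33 and 11.78 (vehicle) in GFP- cells. The fractions lay far apart, by −3.44 (SE 0.30, adjusted p = 1.55e-07, limma), or 10.9-fold, with 5 of 8 GFP+ arrays above background. Rrm1, the larger subunit of the same enzyme, differed by −1.09 and thymidylate synthase, Tyms, by −1.06. The arrays of Tyms overlapped, from 7.17 to 8.25 in GFP+ cells and from 8.17 to 9.78 in GFP- cells.

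Of the 3 S phase regulators E2f8 had the smallest adjusted p of the whole list (8.43e-10, limma). It read 5.44, 5.97, 6.31 and 6.21 (2-octanone) and 5.89, 6.73, 5.40 and 5.88 (vehicle) in GFP+ cells, against 9.72, 9.83, 9.02 and 10.00 (2-octanone) and 10.35, 10.34, 9.68 and 10.80 (vehicle) in GFP- cells. The difference was −3.99 (SE 0.21). As 6 of 8 GFP+ arrays were at or below background, the fold is given with those arrays set at it, as at least 11.0-fold. Uhrf1, which keeps DNA methylation through replication, differed by −1.53 (SE 0.15) with all arrays above background. E2f1, an activator of S phase genes, differed by −0.50 (SE 0.17, adjusted p = 0.0316). Its GFP+ arrays were all at or below background, at 5.56 to 6.33, against 6.01 to 7.14 in GFP- cells, so no fold is given, and the call was lost in 9 of 17 alternative settings.

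**Figure D3:**
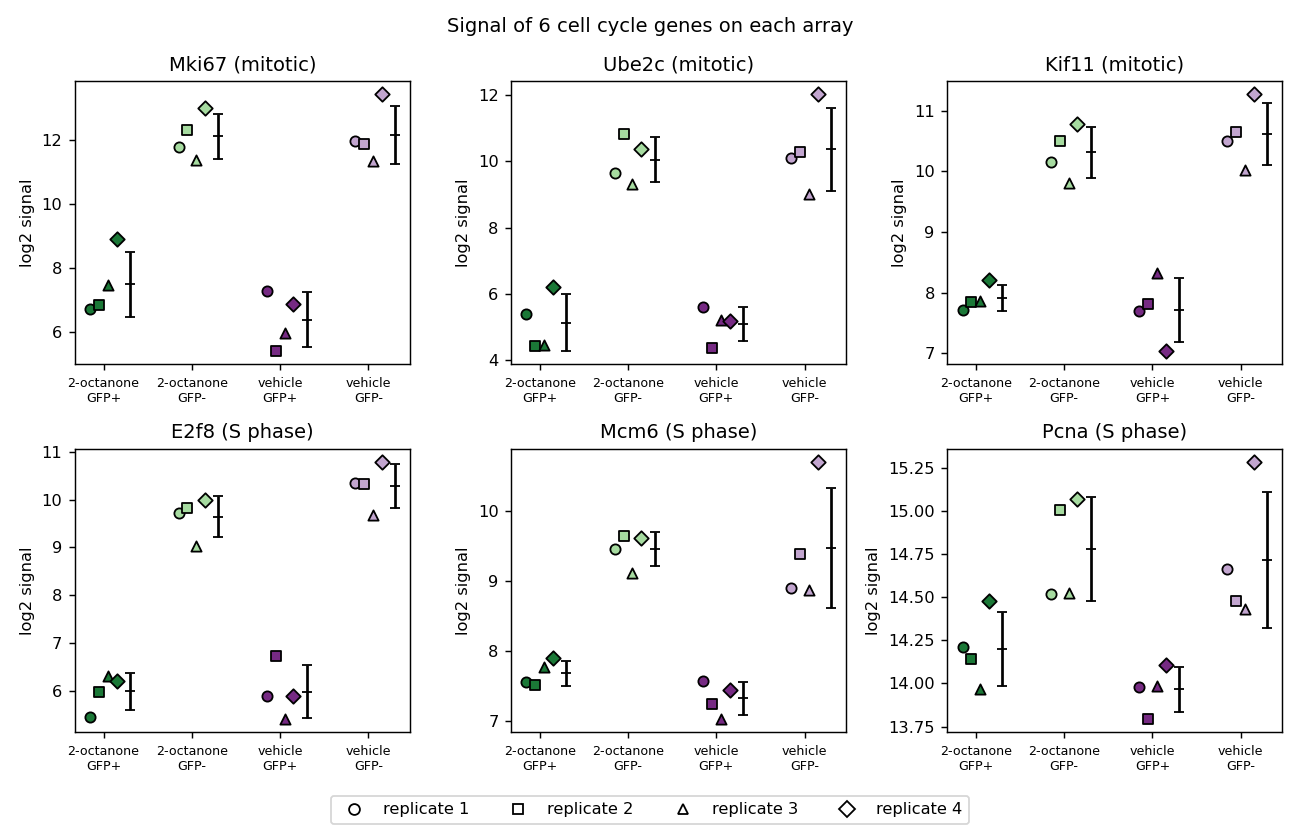
Signal (log2) of 6 genes on each of the 16 arrays, by group, with the marker shape giving the replicate and the bar at the right of each group the mean ± SD of its 4 arrays; the vertical axes differ and do not start at 0. For Mki67, Ube2c, Kif11, E2f8 and Mcm6 every GFP+ array lies below every GFP- array, while Pcna overlaps, and vehicle replicate 4 (diamond) is the highest GFP- array after vehicle in all 6.

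Mki67, the marker used to score dividing cells, had the largest fitted difference of the list, although Ube2c, next to it, is known only as a bound. It read 6.72, 6.83, 7.48 and 8.92 (2-octanone) and 7.27, 5.39, 5.96 and 6.89 (vehicle) in GFP+ cells, against 11.77, 12.32, 11.39 and 13.00 (2-octanone) and 11.97, 11.88, 11.34 and 13.44 (vehicle) in GFP- cells. It was 36.9-fold lower (−5.21, SE 0.38, adjusted p = 2.07e-08, limma), with 6 of 8 GFP+ arrays above background, and 31.5-fold lower with the others set at background. Top2a, the topoisomerase that untangles sister chromatids, differed by −2.07 (SE 0.25). In 2-octanone replicate 3 its difference was −0.35, with GFP+ at 6.80 and GFP- at 7.15, the highest and the lowest values of their groups.

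All 6 measured mitotic kinases and cyclins fell, with a median of −2.53. Ccnb2, a B-type cyclin that activates Cdk1, read 6.95, 7.05, 7.28 and 8.42 (2-octanone) and 7.13, 6.64, 6.64 and 7.84 (vehicle) in GFP+ cells, against 10.89, 11.83, 10.26 and 11.49 (2-octanone) and 10.95, 11.57, 9.98 and 12.76 (vehicle) in GFP- cells. Its difference was −3.97 (SE 0.35, adjusted p = 1.81e-07, limma), 15.7-fold. Cdk1, the kinase that drives mitotic entry, differed by −3.04 (SE 0.38, adjusted p = 9.92e-06), but all GFP+ arrays (2.95 to 4.35) and 4 of the 8 GFP- arrays were at or below background, which leaves a bound of at least 1.05-fold. Polo-like kinase Plk1 differed by −2.69, cyclin A2, Ccna2, by −2.36 and the kinase Melk by −2.25, the last with only 2 of 16 arrays above background, both GFP-, and no fold given. Aurka, the spindle pole kinase, differed by −0.85 (SE 0.15).

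The APC/C partners and entry factors also fell, 3 of 3, with a median of −2.83. Ube2c read 5.41, 4.43, 4.45 and 6.22 (2-octanone) and 5.61, 4.37, 5.21 and 5.17 (vehicle) in GFP+ cells, against 9.65, 10.82, 9.32 and 10.38 (2-octanone) and 10.10, 10.30, 9.01 and 12.03 (vehicle) in GFP- cells. The difference was −5.09 (SE 0.38, adjusted p = 2.43e-08, limma), and because no GFP+ array passed background it stands for a gap of at least 13.3-fold. Cdca3, a factor of mitotic entry, differed by −2.83 (SE 0.25), with 1 of 8 GFP+ arrays above background. Cdc20, the activator of the APC/C, differed by −2.01 (SE 0.23), which is at least 1.05-fold by the same bound.

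The spindle checkpoint, which holds anaphase until chromosomes are attached, was lower in 4 of 4 genes (median −1.87). Bub1, its kinetochore kinase, read 5.11, 5.31, 5.60 and 4.50 (2-octanone) and 5.35, 5.19, 5.01 and 4.89 (vehicle) in GFP+ cells, against 8.66, 9.03, 7.30 and 8.85 (2-octanone) and 8.70, 8.81, 8.03 and 9.93 (vehicle) in GFP- cells. All GFP+ arrays were at or below background, so the difference of −3.54 (SE 0.27, adjusted p = 3.18e-08, limma) stands for at least 4.58-fold. Bub1b differed by −2.34, the kinase Ttk by −1.40 and Mad2l1, a subunit of the inhibitor of the APC/C, by −1.03. Mad2l1 read above background on every array, at 9.09 to 9.71 in GFP+ cells and 10.09 to 11.04 in GFP- cells.

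All 4 kinetochore genes and all 3 of the chromosomal passenger complex fell. Nuf2 (−2.48, SE 0.27) and Ndc80 (−2.46, SE 0.28), which build the microtubule-binding arm of the kinetochore, had fitted differences side by side. Nuf2 was above background on 7 of 8 GFP+ arrays and Ndc80 on none, so Ndc80 was at least 2.60-fold lower. The motor Cenpe differed by −1.84 and Cenpf by −0.997, with only 2 arrays above background, both GFP-. In the passenger complex the kinase Aurkb differed by −2.53 (SE 0.26), at least 3.83-fold, while its partners Cdca8 (−1.34) and Birc5, or survivin (−1.13), differed less.

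Spindle and cytokinesis genes fell in 7 of 7 and 3 of 3 cases, with medians of −2.43 and −1.36. Kif11, the motor that pushes spindle poles apart, read 7.72, 7.85, 7.85 and 8.21 (2-octanone) and 7.69, 7.82, 8.32 and 7.03 (vehicle) in GFP+ cells, against 10.15, 10.51, 9.81 and 10.79 (2-octanone) and 10.50, 10.65, 10.03 and 11.28 (vehicle) in GFP- cells. All 16 arrays were above background and the fractions did not overlap, at a difference of −2.65 (SE 0.20, adjusted p = 2.65e-08, limma), 6.29-fold. Kif23, a motor of the central spindle, differed by −2.65 as well and read above background throughout. Nusap1, a microtubule bundler, differed by −3.25, Kif20a by −2.43 (at least 2.49-fold), Tpx2, an activator of Aurka, by −2.30 and Hmmr by −1.67. In cytokinesis the differences were −1.44 (SE 0.14) for Racgap1, −1.36 (SE 0.19) for Ect2 and −1.20 (SE 0.18, at least 1.54-fold) for Anln.

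Prc1, which crosslinks the microtubules of the central spindle, was the mitotic gene with the smallest fitted difference. It read 8.18, 8.75, 8.31 and 8.78 (2-octanone) and 8.47, 8.69, 8.47 and 8.52 (vehicle) in GFP+ cells, against 9.03, 9.01, 8.77 and 9.37 (2-octanone) and 8.54, 9.03, 8.61 and 9.80 (vehicle) in GFP- cells. The arrays overlapped, though GFP+ was lower in all 8 pools. The difference was −0.50 (SE 0.16, adjusted p = 0.0307, limma), and the call was lost in 9 of 18 alternative settings.

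Other genes of the same pathways are described by list, beside the 14.0% of all probe sets called lower and the 16.7% called higher. Of 48 other mitosis genes 36 were lower and 1 higher, with a median of −0.93. The kinetochore scaffold gene Knl1 differed by −2.21, the kinase gene Pbk by −3.47, the microtubule depolymerase gene Kif2c by −2.44 and the 1 higher gene, Ube2s, by 0.26. Of 39 other replication genes 9 were lower (median −0.13), led by Dbf4 (−1.70), which activates the origin kinase, the GINS subunit gene Gins1 (−1.37) and Timeless (−1.08). Condensin, which compacts mitotic chromosomes, was lower in 5 of 8 genes, with Ncapg at −2.40, Ncaph at −2.21 and Smc4 at −1.23. Cohesin, which holds sister chromatids and also shapes interphase chromatin, was called lower or higher in 0 of 9 (limma, median −0.03, 1 at an unadjusted p under 0.05). The core of the APC/C was lower in 2 of 13, Anapc5 at −0.43 and Cdc27 at −0.24 (median 0.08), near the share of all probe sets.

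Of 13 genes of G1 and the RB pathway 9 were lower (median −1.09), with E2f2 at −4.00, the cyclin gene Ccnd3 at −1.90 and Cdk2 at −3.93. Of 11 genes listed for the DREAM complex, other MuvB partners and quiescence 4 were lower and 3 higher (median −0.01). Lin9 (−0.58), Mybl2 (−1.28) and Tfdp2 (−0.31) were among the lower ones, and Lin52 (0.32), E2f5 (0.30) and E2f6 (0.25) were the higher ones. Of 7 genes of CDK inhibitors, which stop the cycle, 3 were lower. Cdkn1b, coding for p27, differed by −4.41, Cdkn2c by −1.10 and Cdkn2d by −0.61. Cdkn2a was called higher (0.29) with every array at or below background. These lists were chosen with earlier results of the same arrays known.

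Markers of other cells moved with the cell cycle genes in the sort, and their counts stand beside the same 14.0% lower and 16.7% higher of all probe sets. Of the granulocyte precursor markers 11 of 11 were lower in GFP+ cells (median −5.26), such as Chil3 (−7.12), Camp (−6.92), Ltf (−6.61) and Mpo (−5.74). Of the neutrophil markers 9 of 9 were lower (median −7.03), of the erythroid ones 4 of 5 (−1.92, with Car1 at −5.41) and of the B cell and lymphoid precursor ones 5 of 8 (−0.63, with Cd79a at −3.01). Of the globose basal and neuronal precursor markers 5 of 6 were lower (median −1.42), with Kit at −3.20, Tex15 at −2.81 and Hes6 at −1.47. Of those 6, the neurogenic factor Neurog1 was at or below background on all 16 arrays. Immature OSN markers were lower in 5 of 7, with Gng8 at −4.05 and Nhlh1 at −4.01. Mature OSN markers were higher in 4 of 9 (median 0.23), sustentacular markers lower in 2 of 4 and macrophage markers in 3 of 7. Ciliated respiratory markers were higher in 2 of 3, endothelial and fibroblast markers lower in 1 of 4 and horizontal basal markers called in 0 of 4 (limma, 0 at an unadjusted p under 0.05). The part of these cells in the cell cycle result was not tested.

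Across pools the mean over the 47 genes in GFP+ cells was 6.62, 6.69, 6.77 and 7.04 (2-octanone) and 6.58, 6.60, 6.58 and 6.60 (vehicle). This mean hardly differed among the 4 vehicle arrays, though parts of the list did. The cytokinesis genes averaged 7.30 to 8.08 there and the S phase regulators 6.27 to 7.00. In this mean 2-octanone replicate 4 stood above the rest, with the highest value of its group in 28 of the 47 genes. In GFP- cells the mean was 8.59, 8.95, 8.16 and 8.92 (2-octanone) and 8.62, 8.81, 8.22 and 9.78 (vehicle). There the genes were high or low together. Vehicle replicate 4 had the highest of the 4 vehicle values in 47 of 47 genes. The replicate 3 arrays had the lowest value in 39 genes after 2-octanone and 36 after vehicle. The share of all probe sets that were highest or lowest on each array was not counted.

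Marker lists were set beside these means array by array. In GFP+ cells the neutrophil markers averaged 6.98, 6.74, 9.17 and 11.86 (2-octanone) and 6.91, 7.04, 6.61 and 7.85 (vehicle). The granulocyte precursor markers averaged 6.52, 6.39, 7.57 and 8.96 (2-octanone) and 6.52, 6.36, 6.23 and 6.50 (vehicle) in the same cells. Both were highest in 2-octanone replicate 4, as the cell cycle genes were. So were the erythroid (7.85, other GFP+ arrays 6.95 to 7.37) and globose basal and neuronal precursor markers (6.30, others 5.99 to 6.23). Ciliated respiratory markers were highest there by little (8.9705, next 8.9696), and the other marker lists were not. In GFP- cells the granulocyte precursor markers averaged 11.50, 12.28, 10.48 and 12.26 (2-octanone) and 11.78, 12.00, 10.87 and 12.62 (vehicle). They ran in the order of the cell cycle mean in both exposures, lowest in replicate 3 and highest in 2-octanone replicate 2 and vehicle replicate 4. Endothelial and fibroblast markers ran in that order too, at 7.01, 7.42, 6.76 and 7.19 (2-octanone) and 7.05, 7.30, 6.98 and 7.53 (vehicle). Sustentacular markers did so after vehicle only, at 10.77, 11.11, 10.62 and 11.62. Erythroid markers in GFP- cells averaged 8.96, 9.54, 8.89 and 9.63 (2-octanone) and 9.10, 9.09, 8.82 and 10.70 (vehicle), again lowest in replicate 3. Globose basal and neuronal precursor markers in GFP- cells averaged 7.75, 7.68, 7.86 and 7.30 (2-octanone) and 7.55, 7.88, 7.90 and 8.23 (vehicle), with replicate 3 not lowest in either. Neutrophil markers in GFP- cells averaged 13.49, 14.63, 13.94 and 15.59 (2-octanone) and 14.10, 14.01, 13.75 and 14.97 (vehicle), lowest in replicate 1 after 2-octanone. Vehicle replicate 4 was also the highest vehicle GFP- array for sustentacular (11.62), macrophage (9.94) and immature OSN markers (12.03). The same held for B cell and lymphoid precursor (6.99) and for endothelial and fibroblast markers (7.53). That array was not the highest for mature OSN, horizontal basal or ciliated respiratory markers. The part of any of these cells in the differences between pools was not tested.

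**Figure D4:**
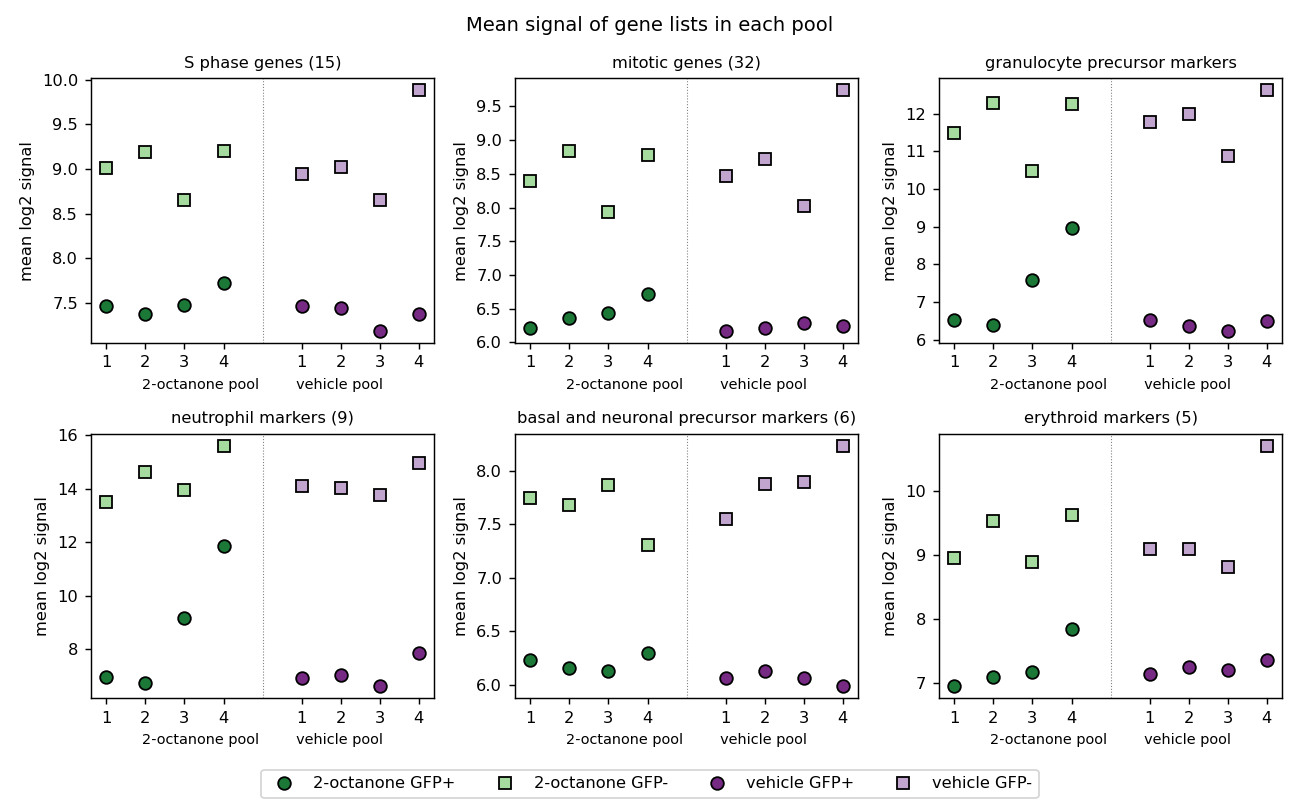
Mean signal (log2) of S phase genes, mitotic genes and 4 marker lists in the GFP+ (circles) and GFP- (squares) arrays of each pool, numbered by replicate within 2-octanone and vehicle; the vertical axes differ. S phase, mitotic, granulocyte precursor and erythroid means are lowest in the replicate 3 GFP- arrays of both exposures. The neutrophil mean reaches 9.17 and 11.86 in the GFP+ arrays of 2-octanone replicates 3 and 4.

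The comparison of 2-octanone with vehicle asks whether exposure to the odorant changed these genes within a fraction. In GFP+ cells limma called 0 of the 47 genes, as it called 0% of all probe sets, and 0 of the 47 had an unadjusted p under 0.05, which 3.16% of all probe sets had. The largest difference was that of Mki67, with 6.72, 6.83, 7.48 and 8.92 in 2-octanone pools and 7.27, 5.39, 5.96 and 6.89 in vehicle pools (1.11, SE 0.54, adjusted p = 1.000). It was 0.63 without 2-octanone replicate 4 and 0.40 without 2-octanone replicates 3 and 4. Nuf2 followed at 0.62 (SE 0.39). Of the 47 differences 41 were positive, with a median of 0.20 in S phase and in mitotic genes alike, where 51.4% of all genes were positive. Without 2-octanone replicate 4 the count was 31 and the median 0.12, and without 2-octanone replicates 3 and 4 they were 25 and 0.07. With any other 1 pool left out 35 to 40 were positive, and without both replicate 4 pools 32 were (median 0.15). The neutrophil and granulocyte precursor markers were high in the GFP+ cells of 2-octanone replicates 3 and 4. Whether they had a part in the direction of the 47 genes was not tested. Neutrophil markers were positive in 9 of 9 (median 1.55) and granulocyte precursor markers in 11 of 11 (median 0.77), with 0 of either list called (limma, 2 and 3 at an unadjusted p under 0.05).

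In GFP- cells 0 of the 47 genes were called, beside 0.00511% of all probe sets, and 2 had an unadjusted p under 0.05, beside 2.44%. Those 2 were E2f8, at 9.72, 9.83, 9.02 and 10.00 after 2-octanone and 10.35, 10.34, 9.68 and 10.80 after vehicle (−0.65, SE 0.29), and Racgap1, at 10.71, 10.80, 10.80 and 10.72 after 2-octanone and 10.74, 11.31, 11.01 and 11.70 after vehicle (−0.43, SE 0.20). The arrays of the exposures overlapped for both, and the adjusted p was 0.9998 for each (limma). Both genes read lower in the 2-octanone pool of each of the 4 replicate numbers, and with the number as a replicate block the adjusted p was 0.9977 for each (limma). Of the 47 differences 39 were negative (median −0.21), but this direction turned with the array left out. Without vehicle replicate 4, 30 were positive and the median was 0.14, and without 2-octanone replicate 3 the numbers were 24 positive and a median of 0.0003. Without vehicle replicate 3, 46 were negative (median −0.45), and without both replicate 4 pools 29 were positive (median 0.03). In neither fraction did a gene of the 47 have 2-octanone arrays all above or all below the vehicle arrays. In GFP+ cells 0.930% of all probe sets lay all above and 0.858% all below, and in GFP- cells 1.12% and 0.700%.

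The change of the GFP+ to GFP- ratio with 2-octanone was called in 0 of the 47 genes and 0% of all probe sets (limma, 0 of the 47 at an unadjusted p under 0.05, beside 2.38%). The ratio was less low after 2-octanone in 43 of the 47 genes, with a median change of 0.35, where 51.2% of all genes were positive (median 0.01). The change was 1.11 for Plk1, 0.83 for Ttk and 0.67 for Ect2, none called. Without vehicle replicate 4 the median was 0.04 and 28 of the 47 were positive, and without vehicle replicate 3 it was 0.54 with 46 positive. The exposure and ratio comparisons share arrays.

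**Figure D5:**
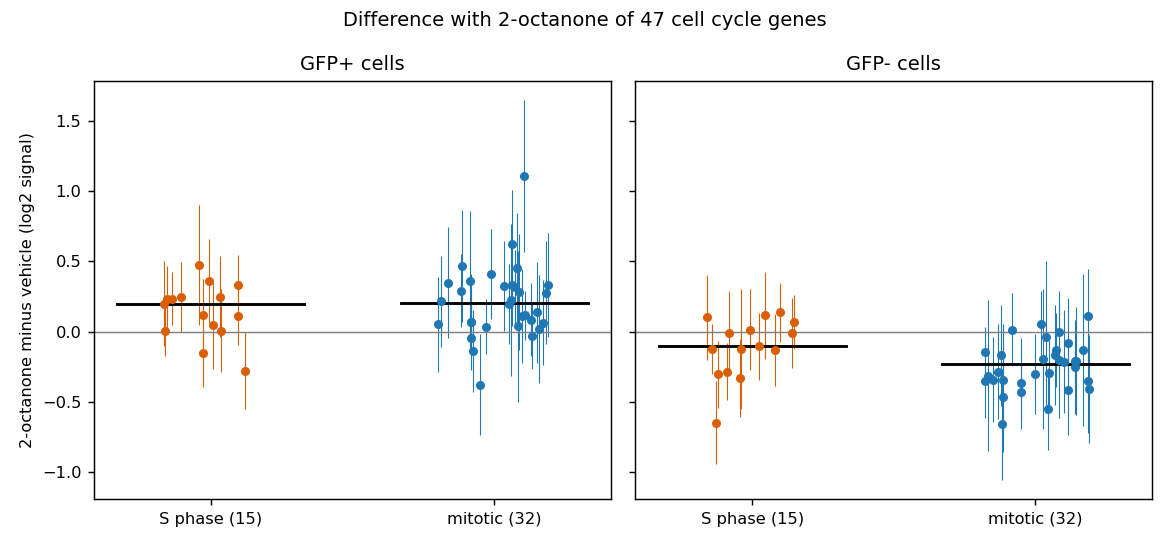
Difference of 2-octanone from vehicle (log2 signal) for each of the 47 genes in GFP+ and GFP- cells, as points with SE from limma and a black bar at the median of each class; points are spread sideways for legibility. In GFP+ cells 41 of 47 lie above 0 and in GFP- cells 39 of 47 lie below it, and none was called.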

How the data were processed

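Each of the 16 arrays measured 1 sorted fraction of 1 pool. The authors deposited 1 table of 28846 probe sets, read as log2 signals because the values run from 2.13 to 18.99. Expression Console made them, per the submitters' processing notes; the normalisation algorithm is not given in the sources used here. Of the probe sets 19572 name 1 gene through the platform annotation. Where a gene has several probe sets, that with the highest mean is described.

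The 16 arrays entered 1 linear model of 4 group means (R 4.3.3, limma 3.58.1, empirical Bayes, 12 residual degrees of freedom, prior 4.19). Tests were two-sided, p-values were Benjamini-Hochberg adjusted over 19572 probe sets, and calls were made at 0.05. The limma step was tested on simulated data. No filter on dim probe sets was used. The p-values measure the spread among the arrays within a group, 4 per group and each from another pool, whose number limits the precision. The main model has no term for the pool, so the GFP+ and GFP- arrays of 1 pool enter as independent. The background level of an array is the median of its 23 background control probe sets. A gene with all GFP+ arrays at or below it got at most a bound: its GFP- mean against the mean of the GFP+ arrays' background levels. No fold is given for E2f1, Melk, Cenpf and Gins2.

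GFP+ and GFP- cells were sorted from the same animals, so the pool pairs them. Residuals of the 2 fractions of a pool correlated at 0.26, −0.005, 0.32 and 0.46 (2-octanone) and 0.09, 0.22, 0.30 and 0.44 (vehicle). This pairing rests on the shared animals and not on these values. Residuals of same-numbered arrays of the 2 exposures correlated at 0.19, 0.17, 0.26 and 0.43 in GFP+ and 0.34, −0.06, 0.35 and 0.52 in GFP- cells. The labels do not say whether numbers pair the exposures. Since 1 GFP- value is under 0.1, they were not taken to, which does not exclude a shared batch. Either block was an alternative.

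The genes, lists and tests were chosen with earlier results of these data known. All genes of the list may be named. Of a pathway list up to 3 called genes per direction with the smallest p are named, and of a marker list up to 4 with the largest difference. S100a5 is named for the pools that stand apart. Alternatives were quantile normalisation, median centring, leaving out dim probe sets, trend and robust options, only the arrays compared, blocks, each pool left out, the mean of a gene's probe sets and a threshold of 0.1. Promoter windows were also cut to start 150 bases before the start. Leaving out both replicate 4 pools, or 2-octanone replicates 3 and 4, and setting GFP+ arrays at or below background at that level were added after seeing the data.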

Additional observations from a re-analysis of the deposited data

Results flagged for a closer look

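For each of the 47 genes in each of the 4 groups, the array farthest from the others was compared with the range of the group, and 11 of 188 group values lay apart by Dixon's criterion (5.85%), where chance gives about 1 in 20. Vehicle replicate 4 of the GFP- cells was high for 4 genes. Cdt1 read 10.01 there, against 8.89 to 9.05 on the other arrays of the group, and Uhrf1 read 9.74, against 9.21 to 9.27. Birc5 read 8.73, against 7.51 to 7.71, and Mad2l1 11.04, against 10.28 to 10.40.

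The GFP- array of 2-octanone replicate 3 was low for Kif20a, at 6.90 against 7.85 to 7.96, and for Top2a, at 7.15 against 8.29 to 8.41. The GFP+ array of the same pool was high for Top2a, at 6.80, the others being 5.83 to 5.997. The other 4 were low GFP+ arrays at or below background. Kif20a read 4.73 in 2-octanone replicate 1, against 5.53 to 5.64. Ttk read 4.86 in vehicle replicate 1, against 5.89 to 6.06, Ndc80 4.83 in vehicle replicate 2, against 5.28 to 5.37, and Melk 3.62 in vehicle replicate 3, against 3.93 to 3.97.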

How the results depend on the processing

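In the sort 43 of the 47 genes kept their direction and their side of the threshold under every alternative run, the exceptions being Mcm4, E2f1, Prc1 and Gins2. Median centring raised the median difference of all genes by 0.28, and the median of the 47 genes was then −1.68 against 0.41 over all genes. It called 2052 of all probe sets lower and 13089 higher (10.5% and 66.9%), against 2737 and 3263 without it. It left 43 of the 47 genes called lower, turned Gins2 to 0.0921 and took the calls from Mcm4 (−0.09), E2f1 (−0.23) and Prc1 (−0.22). Quantile normalisation called 2598 lower and 4746 higher of all, and 43 of the 47 lower. Over all alternatives the adjusted p reached 0.503 for Mcm4, 0.207 for E2f1 and 0.225 for Prc1. Leaving out probe sets below the median mean signal kept 21 of the 47 genes. Of these 21 were called lower over both exposures, 19 after 2-octanone and 19 after vehicle. Of all probe sets kept 14.3%, 10.2% and 11.4% were called lower. The smaller counts follow from the fewer genes.

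With 1 pool left out, 43 to 46 genes were called over both exposures, 35 to 44 after 2-octanone and 42 to 43 after vehicle. Of all probe sets 12.6% to 13.5%, 7.56% to 10.6% and 8.89% to 11.4% were called lower, in the same order. Calls for exposure in either fraction and for the ratio stayed at 0. The median then lay between −1.60 and −1.41 for S phase and between −2.42 and −2.13 for mitotic genes. With GFP+ arrays at or below background set at that level, added after seeing the data, the mitotic median was −1.4759 and the S phase median −1.09. This shift was larger than the SD of the pool medians for mitotic genes (0.65) and smaller for S phase genes (0.47). With the pool as a fixed replicate block 46, 42 and 43 genes were called lower, and with replicate blocks 0 were called for exposure in GFP+ or GFP- cells or for the ratio. With the pool as a random replicate block the counts were 46, 43 and 43, beside 15.1%, 11.2% and 12.4% of all probe sets. That was 1 more gene after 2-octanone. In the promoter windows cut to start 150 bases before the start, 1 S phase gene held CHR with CCAAT in place of 2. Leaving out 2-octanone replicates 3 and 4 gave 32 calls after 2-octanone. There 6.18% of all probe sets were called lower, against 9.80% with all arrays. Signal over background limits the 12 genes with GFP- but no GFP+ arrays above background. Among them E2f1, Melk and Cenpf have neither a fold nor a bound. Gins2 was not measurable above background.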
